A study of Homo sapiens with 18 samples.

Results

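The comparison described here sets the MDM2 degrader MD-224 against the MDM2 inhibitor MI-1061 in cells that had first received neocarzinostatin (NCS). It uses 6 of the 18 libraries of the series, 3 with NCS and MD-224 and 3 with NCS and MI-1061, and all 3074 genes that the deposited table lists. The cells were SJSA-1, a human osteosarcoma line with amplified MDM2, and poly(A) RNA was sequenced. Both groups were kept for 72 h in NCS at 1 µg/mL, a drug that breaks DNA, and received 1 µM of their compound for the last 24 h, so dose and time were matched. The same pair of compounds was also given for 24 h to cells held in the solvent DMSO in place of NCS, with 3 libraries each, and 3 further libraries had NCS with DMSO as the only addition. Some labels spell the inhibitor with other digits than the titles, and the titles were followed. All libraries came from 1 cell line, and the labels do not say that replicates were separate cultures, so p-values measure the spread between these samples.

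MDM2 is a ubiquitin ligase that binds the transcription factor p53 and marks it for destruction. An MDM2 inhibitor blocks that binding and leaves MDM2 in the cell, whereas a degrader is meant to remove the MDM2 protein itself. MDM2 is also a p53 target gene, so active p53 raises the transcript of its own antagonist together with genes of cell-cycle arrest, apoptosis, DNA repair and metabolism. No protein was measured here.

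Values are normalized counts, which scale the reads of each library by its size factor, and differences are log2(normalized count + 1) of MD-224 minus MI-1061 from limma. A gene is called where the adjusted p is under 0.05, and fold means 2 to the power of the difference. The table is a selection: the ratio of the mean with NCS and MI-1061 to that of untreated cells was 1.751 or more for every gene listed. The MI-1061 libraries of this comparison took part in that listing, so counts of genes lower with MD-224 are conditioned on it. Genes outside the table were not analysed here. The listed genes summed to between 16915900 and 17252600 normalized counts with NCS and MI-1061, and to between 9132300 and 10630500 with NCS and MD-224. An alternative scaling, TMM on the listed genes alone, moved the median difference from −0.67 to −0.01 and so reads each gene against the median listed gene. It is given beside the gene groups below as scaling on the listed genes.

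After NCS most listed genes were lower with the degrader than with the inhibitor. Of 3073 genes tested (1 was too low), limma called 1680 lower with MD-224, or 54.7%, and 23 higher, or 0.748%. The count of genes higher was 10 without NCS and MD-224 replicate 3, 15 without NCS and MI-1061 replicate 1, and 34 with the replicate number as a block. The median difference was −0.67, or 0.629-fold, and 928 of the genes called lower were at least 2-fold lower. In 2081 genes, or 67.7% of those listed, all 3 MD-224 libraries lay below all 3 MI-1061 libraries. In 52, or 1.69%, the MD-224 libraries lay above. Under scaling on the listed genes limma called 552 lower and 357 higher, so genes higher made up far more of the calls. The mean with MD-224 lay from the level of NCS alone up to that of NCS with MI-1061 in 2429 genes, or 79%. Against NCS alone, limma called 465 genes higher with MD-224, or 15.1%, and 2168 with MI-1061, or 70.5%. These comparisons share the libraries with NCS alone. Both counts and the 79% are also conditioned on the listing, in which the MI-1061 libraries took part. The count for MD-224 was 186 without NCS and MD-224 replicate 1, 298, 287 and 283 without the replicates of NCS alone, and 755 with the replicate block. Scaling on the listed genes gave 116 higher and 6 lower for MD-224, and 733 higher and 592 lower for MI-1061.

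**Figure D1:**
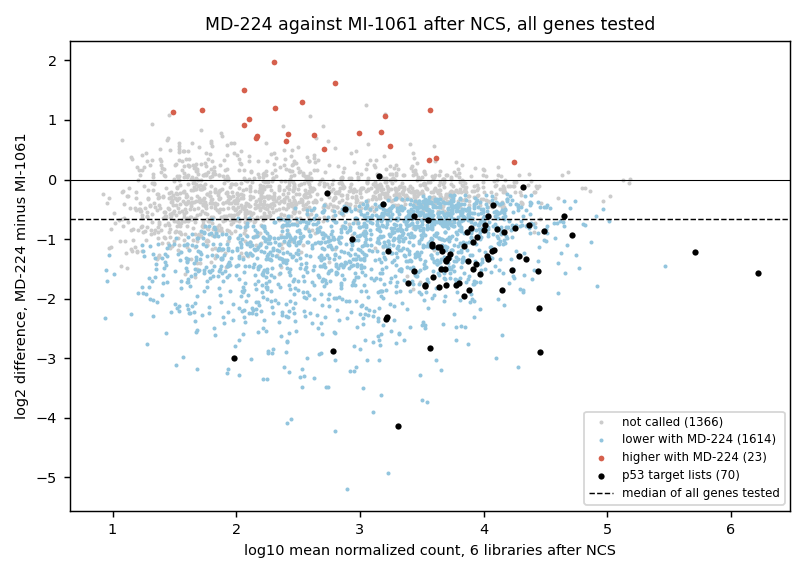
Difference between MD-224 and MI-1061 after NCS for all 3073 genes tested (vertical axis, log2), against the mean normalized count over the 6 libraries (horizontal axis, log10). The dashed line marks the median of −0.67, and most of the 70 genes of the p53 target lists (black) lie below it.

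MDM2 itself (chromosome 12, 68808172 to 68850686, GRCh38.p14) was lower with the degrader. Its normalized count was 2373749, 2485072 and 2520807 in the 3 libraries with NCS and MI-1061, and 961730, 838975 and 697739 with NCS and MD-224. The ranges did not overlap, and MDM2 was at 0.336-fold (log2 −1.57, SE 0.17, limma adjusted p = 9.5e-07). MDM2 took 13.9% to 14.9% of the listed normalized counts with MI-1061 and 7.53% to 9.19% with MD-224. Both compounds left it above NCS alone, where the mean was 182308 ± 5967 (SD, n = 3). CDKN1A (chromosome 6, 36676463 to 36687332), the gene of p21, a blocker of cyclin-dependent kinases, was at 748455, 651428 and 737907 with MI-1061 and at 412513, 251904 and 271554 with MD-224. All MD-224 libraries again lay below, at 0.428-fold (log2 −1.22, SE 0.16, limma adjusted p = 5.29e-06). Such an order of the libraries held in 67.7% of all listed genes.

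Genes known as p53 targets were lower with the degrader almost without exception. Of 70 such genes on 6 lists, 66 were called lower, against 54.7% of all genes tested, and their median was 0.41-fold against 0.629-fold for all genes. The other 4, PLK2 (log2 −0.12), KLF4 (0.06), CASP1 (−0.50) and ERCC5 (−0.23), did not pass the test. With the replicate number as a block, 67 were called lower, CASP1 being the addition (limma adjusted p = 0.0354). After scaling on the listed genes 43 of the 70 were called lower and 2 higher, with a median log2 difference of −0.62. PLK2 (0.54), CASP1 (0.16) and ERCC5 (0.44) changed sign under that scaling. Against NCS alone, 52 of the 70 were called higher with MD-224, and 69 with MI-1061, against 15.1% and 70.5% of all genes tested. These counts are conditioned on the listing as well.

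A sequence search looked for p53 response elements, because p53 binds a pair of half-sites of 10 letters each. In the 250 bases before each RefSeq start, 59 of the p53 list genes had a window. Of these 12, or 20.3%, held adjacent half-sites on either strand with at most 3 mismatches over the 20 letters and the core C and G of each kept. The share was 1.12% of 27305 genes with a window, 2.24% of 2274 listed genes, 3.02% of 1291 genes called lower and 1.24% of 964 genes not called. The last value stands close to that of all genes. The 12 p53 list genes with a match are among the 39 such genes called lower. The 3.02% is thus in part a second count of that list. The half-site without mismatch stood in 8.52% of genes called lower, 6.95% of those not called and 6.8% of all. A match describes letters and does not show binding, and the search covers only this window. The 12 matches are printed 5′ to 3′ in the strand of the gene, with the core bases in capitals. All of these genes were called lower with MD-224.
AEN: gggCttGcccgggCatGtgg
CES2: ggcCgtGcccgggCctGcct
DCP1B: gggCagGcctgggCttGtcg
FAS: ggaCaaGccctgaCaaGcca
FDXR: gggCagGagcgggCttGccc
GPX1: gggCcaGaccagaCatGcct
MDM2: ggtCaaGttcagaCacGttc
PANK1: gggCagGactgggCatGctc
PMAIP1: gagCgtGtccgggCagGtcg
RPS27L: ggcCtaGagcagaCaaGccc
SESN1: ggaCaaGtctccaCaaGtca
TRIM32: cgaCaaGccccagCatGctg

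The MDM2 match lay at chr12:68808923-68808942 on the plus strand, 94 bases before a start, and had 2 mismatches. The FAS match at chr10:88991309-88991328 (plus strand, 2 mismatches) lay 122 bases before one of its starts. The SESN1 match at chr6:109009018-109009037 (minus strand, 3 mismatches) lay 49 bases before a start. Sequences and positions are from RefSeq, build GRCh38.p14. The whole windows of FAS (chr10:88991181-88991430, plus strand) and SESN1 (chr6:109008989-109009238, minus strand) are shown for context, since they overlap no annotated exon, with the match in capitals.
FAS: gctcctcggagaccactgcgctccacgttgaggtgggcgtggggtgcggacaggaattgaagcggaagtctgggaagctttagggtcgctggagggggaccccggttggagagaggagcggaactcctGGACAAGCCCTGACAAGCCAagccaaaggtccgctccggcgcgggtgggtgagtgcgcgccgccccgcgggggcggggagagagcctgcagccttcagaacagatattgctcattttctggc
SESN1: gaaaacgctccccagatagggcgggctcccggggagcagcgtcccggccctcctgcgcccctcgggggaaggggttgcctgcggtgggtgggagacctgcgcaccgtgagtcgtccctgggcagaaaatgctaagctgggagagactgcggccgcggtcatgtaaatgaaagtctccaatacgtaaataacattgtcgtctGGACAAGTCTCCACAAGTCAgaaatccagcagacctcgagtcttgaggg

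The feedback regulators of p53 on the list were lower together, 3 of 3 called, against 54.7% of all genes tested. TP53INP1, which promotes p53 activity, was at 30044, 25412 and 26121 with MI-1061 and at 14296, 11216 and 8687 with MD-224 (0.412-fold, log2 −1.28, SE 0.15, limma adjusted p = 2.2e-06). PPM1D, a phosphatase that switches the damage response off, was at 8232, 7282 and 6933 against 4022, 3051 and 2547 (0.422-fold, adjusted p = 7.23e-06). In both genes all MD-224 libraries lay below, as they did in 67.7% of all listed genes. In the scaling on listed genes all 3 stayed called lower.

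Of 10 listed genes of p53-dependent arrest, 8 were called lower with MD-224, with a median of 0.385-fold. The 8 are 80%, against 54.7% of all genes. By the listed-gene scaling 7 were called lower and 1 higher. SFN, which encodes a 14-3-3 protein and holds cells in G2, had among the largest falls of the comparison. It was at 1708, 7986 and 1942 with MI-1061 and at 232, 347 and 58.7 with MD-224, or 0.0567-fold (log2 −4.14, SE 0.85, limma adjusted p = 0.000564). Replicate 2 with MI-1061 stood far above the others. No library of the 2 groups overlapped, which the rule for naming the largest falls required. The antiproliferative gene BTG2 was at 0.276-fold and the stress sensor GADD45A at 0.345-fold.

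Genes of p53-dependent apoptosis were called lower in 17 of 18 cases, or 94.4% against 54.7% of all genes. Their median was 0.504-fold, and scaling on the listed genes gave 7. TP53I3, an oxidoreductase, showed the largest fall among them. It was at 45912, 55706 and 49614 with MI-1061 and at 9913, 8031 and 3848 with MD-224, or 0.134-fold (log2 −2.90, SE 0.27, limma adjusted p = 3.36e-07). FAS, a death receptor, was at 12496, 11640 and 12082 against 5223, 4023 and 3694, or 0.354-fold. BBC3, which encodes the BH3-only protein PUMA, was at 0.434-fold, PHLDA3, an inhibitor of AKT signalling, at 0.541-fold, and AEN, an exonuclease, at 0.558-fold. PERP, a membrane protein of apoptosis and cell junctions, was at 22343, 24176 and 22097 against 13489, 12747 and 12944. Its mean with MD-224 matched that of NCS alone closely, 13080 normalized counts, and the difference from NCS alone was not called (limma adjusted p = 0.99). Scaling on the listed genes ended the calls against MI-1061 on BBC3, PHLDA3, AEN and PERP (limma adjusted p = 0.0967 to 0.245).

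Among 11 listed members of the TNF receptor family 8 were called lower, at a median of 0.484-fold. The 8 are 72.7%, against 54.7% of all genes, and FAS, EDA2R and TNFRSF10B are also on the p53 apoptosis list. With scaling on the listed genes 3 of the 11 were called lower and 1 higher. TNFRSF10B, a receptor for TRAIL, was at 73798, 62114 and 68351 with MI-1061 and at 41949, 30266 and 35613 with MD-224 (0.525-fold, limma adjusted p = 1.22e-05). TNFRSF10A, the other main TRAIL receptor, was far less abundant in its own normalized counts, at 98.8, 32.4 and 69.3 against 13.7, 11.1 and 15.2. Scaling on the listed genes ended the calls on TNFRSF10B (limma adjusted p = 0.143) and TNFRSF10A (0.0868). EDAR, the ectodysplasin receptor, was at 105, 127 and 107 against 25.3, 23 and 12.2. Of 10 listed BCL2 family genes 8 were called lower, with a median of 0.555-fold, and 2 with scaling on the listed genes. The 8 are 80%, against 54.7% of all genes, and BBC3, PMAIP1, BCL2L1 and BAX are also on the p53 apoptosis list. The effectors of pore formation differed in size: BAK1 was at 0.442-fold and BAX at 0.656-fold, and BAX changed sign with scaling on the listed genes (log2 0.06). The BH3-only genes BCL2L11 and PMAIP1 were at 0.333-fold and 0.542-fold. The call on PMAIP1 was lost with scaling on the listed genes (limma adjusted p = 0.474).

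DNA repair and nucleotide supply followed the same direction in 7 of 8 listed genes, with a median of 0.394-fold. The 7 are 87.5%, against 54.7% of all genes. Under scaling on the listed genes 6 were called lower and 1 higher. RRM2B, the ribonucleotide reductase subunit that supplies nucleotides for repair, was at 31057, 31489 and 31240 with MI-1061 and at 14599, 13014 and 10171 with MD-224 (0.398-fold, limma adjusted p = 7.81e-07). POLH, a polymerase that copies past damaged bases, was at 12593, 11899 and 11432 against 4301, 3136 and 2679 (0.276-fold). DDB2, a sensor of ultraviolet damage, was at 0.459-fold. The MI-1061 libraries lay within a narrow range in all 3 genes.

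The p53 targets of metabolism, redox control and mitophagy had the lowest median of the 6 p53 lists, 0.336-fold. All 16 were called lower, against 54.7% of all genes. After scaling on the listed genes 13 were called lower. FDXR, the mitochondrial ferredoxin reductase, was at 42969, 46789 and 46434 with MI-1061 and at 14640, 10610 and 6663 with MD-224, or 0.223-fold (log2 −2.16, SE 0.23, limma adjusted p = 1.15e-06). PANK1, the first enzyme of coenzyme A synthesis, was at 2674, 3098 and 2470 against 685, 618 and 398, or 0.202-fold. SESN1, an inhibitor of the growth regulator mTORC1, was at 0.373-fold, TIGAR, which lowers glycolysis, at 0.435-fold, DRAM1, a lysosomal autophagy protein, at 0.512-fold, and GPX1, a glutathione peroxidase, at 0.548-fold.

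All 16 listed p53 targets of RNA and protein control were called lower too, against 54.7% of all genes. Their median was 0.455-fold, and 8 were called lower with scaling on the listed genes. CES2, a carboxylesterase, was at 13276, 16020 and 12419 with MI-1061 and at 5454, 4916 and 3672 with MD-224 (0.334-fold, limma adjusted p = 4.07e-07). FBXW7, the substrate receptor of a ubiquitin ligase, was at 0.354-fold, and TRIM32, a further ubiquitin ligase, at 0.627-fold. The smallest falls were those of RPS27L, a ribosomal protein paralog (0.743-fold), and DCP1B, an mRNA decapping factor (0.753-fold). Both changed sign with scaling on the listed genes, to log2 0.24 and 0.26, and the call on DCP1B was lost without any 1 of 5 libraries (limma adjusted p = 0.0673 to 0.118).

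**Figure D2:**
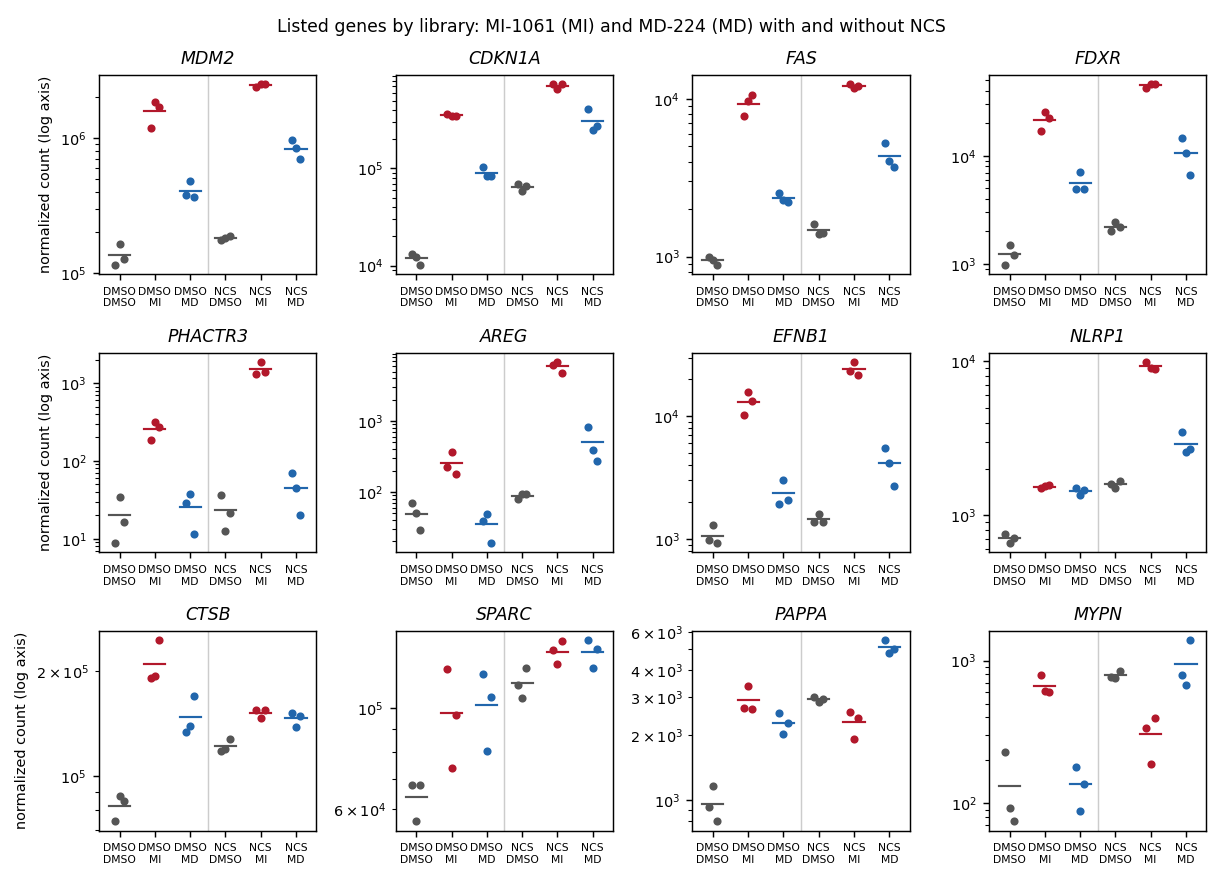
Normalized counts (log axis) of 12 genes in all 18 libraries, as points with the group mean as a line. Red is MI-1061, blue MD-224 and grey DMSO alone, to the left without NCS and to the right after NCS. MDM2, CDKN1A, FAS and FDXR lay lower with MD-224 on both sides, NLRP1 after NCS, and PAPPA and MYPN lay higher with MD-224 after NCS.

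PHACTR3, DRAXIN and LSP1 had the largest falls by the naming rule. PHACTR3 (chromosome 20, 59577509 to 59847711), a regulator of protein phosphatase 1 and actin, was at 1326, 1877 and 1403 with MI-1061 and at 70.7, 45.2 and 20.2 with MD-224. That is 0.0272-fold (log2 −5.20, SE 0.53, limma adjusted p = 6.86e-07). With MD-224 it was not called different from NCS alone, where the mean was 23.4 (adjusted p = 0.29). DRAXIN, a secreted axon guidance protein, was at 2690, 4102 and 2979 against 167, 169 and 39.5, or 0.0327-fold, and MD-224 left it above NCS alone (log2 1.98, adjusted p = 0.013). LSP1, an actin-binding protein of leukocytes, was at 997, 1740 and 814 against 109, 80.8 and 23.3, or 0.0536-fold.

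Growth factor receptors and axon guidance genes formed the list with the lowest median of all those with over 5 members, 0.319-fold. Of 19 listed members 16 were called lower, and 11 with scaling on the listed genes, which called 1 higher. Of all genes tested 54.7% were called lower. PLXNB2 and PLXNB3 are also on the p53 apoptosis list. EFNB1, a membrane-bound ephrin ligand, was at 23383, 27717 and 21616 with MI-1061 and at 5529, 4140 and 2697 with MD-224 (0.164-fold, limma adjusted p = 1.98e-07). The guidance cue NTN1 was at 11300, 13884 and 11926 against 3638, 3423 and 2086, or 0.24-fold. PLXNB3, a semaphorin receptor, was at 0.291-fold, EPHB3, an ephrin receptor, at 0.272-fold and FGFR2, a fibroblast growth factor receptor, at 0.328-fold. AREG (amphiregulin), which activates the EGF receptor, was at 6142, 6873 and 4745 against 830, 393 and 275, or 0.0767-fold (log2 −3.70, SE 0.41, adjusted p = 1.5e-06).

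Genes typical of stratified epithelium were called lower in 13 of 19 cases, at a median of 0.47-fold, and scaling on the listed genes gave 8. Of all genes tested 54.7% were called lower. COL17A1, a collagen of hemidesmosomes, was at 4392, 11000 and 4113 with MI-1061 and at 573, 560 and 257 with MD-224, or 0.0748-fold (limma adjusted p = 6.7e-05). DSP, the main plaque protein of desmosomes, was at 22683, 22642 and 25865 against 10165, 7275 and 11196, or 0.396-fold. CSTA, a protease inhibitor of the skin, was at 0.123-fold, and the keratin genes KRT4 and KRT78 were at 0.189-fold and 0.207-fold. No defining marker of simple epithelium (EPCAM, CDH1, KRT8, KRT18, KRT19) is in the table.

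Of 9 listed genes of the 12q13-15 region around MDM2, 7 were called lower and 1 higher. MDM2 itself, described above, is among the 9 and the 7. The 7 are 77.8%, against 54.7% of all genes tested. In the scaling on listed genes 2 of the 9 were called lower and 1 higher. CPM, a carboxypeptidase encoded next to MDM2, was at 33318, 32187 and 31766 with MI-1061 and at 10208, 9395 and 7505 with MD-224, or 0.276-fold (limma adjusted p = 4.92e-07). TSPAN31, a tetraspanin gene beside CDK4, was the exception and was named after its values were seen. It was at 14837, 16930 and 16008 against 18417, 20332 and 19920, or 1.23-fold higher with MD-224 (adjusted p = 0.0254). That call was lost without NCS and MI-1061 replicates 1 or 3 or NCS and MD-224 replicates 2 or 3 (adjusted p = 0.0542 to 0.102).

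Genes of the integrated stress response were called lower in 6 of 9 cases, at a median of 0.513-fold, and in 2 with scaling on the listed genes. The 6 are 66.7%, against 54.7% of all genes tested, and SESN2 is also on the p53 metabolism list. PSAT1, an enzyme of serine synthesis, was at 7964, 7491 and 6862 with MI-1061 and at 3101, 2350 and 1757 with MD-224 (0.315-fold, limma adjusted p = 9.24e-07). NUPR1, a stress-induced transcriptional regulator, was at 0.249-fold. GDF15, a cytokine secreted under stress, was at 479833, 393669 and 404317 against 241246, 118241 and 132370, or 0.367-fold (adjusted p = 0.0101). The transcription factor ATF3 was at 0.513-fold (adjusted p = 0.02), a call lost without NCS and MI-1061 replicate 1 or NCS and MD-224 replicates 2 or 3 (adjusted p = 0.0534 to 0.0625). Scaling on the listed genes ended the calls on GDF15 (limma adjusted p = 0.193) and ATF3 (0.536).

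Of 12 listed cytokine and chemokine genes 3 were called lower with MD-224 and the other 9 were not called, with a median of 1.05-fold against 0.629-fold for all genes. The 3 called lower are 25%, below the 54.7% of all genes tested. By the listed-gene scaling 1 was called lower and 2 higher. IL1A, an alarm cytokine, was at 3287, 3268 and 2980 with MI-1061 and at 1404, 848 and 1176 with MD-224, or 0.353-fold (limma adjusted p = 0.000229). IL1B was at 10497, 10339 and 9227 against 5597, 2623 and 5864, or 0.441-fold (adjusted p = 0.0309), a call lost without NCS and MI-1061 replicates 1, 2 or 3 or NCS and MD-224 replicate 2 (adjusted p = 0.0532 to 0.165). CSF1, a macrophage growth factor, was at 0.713-fold (adjusted p = 0.0192). It changed sign with scaling on the listed genes (log2 0.18), and the call was lost without NCS and MI-1061 replicate 1 (0.052) or NCS and MD-224 replicate 3 (0.0892). IL6 went the other way in all libraries, at 282, 361 and 386 with MI-1061 and 578, 512 and 876 with MD-224, but was not called (log2 0.90, 95% interval −0.23 to 2.04, adjusted p = 0.166). In a fit of the 2 compared groups alone its adjusted p was 0.00822.

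Of 11 listed NF-kB pathway genes 5 were called lower, at a median of 0.741-fold, against 54.7% of all genes. Scaling on the listed genes ended these 5 calls, NFKBIE, TRAF1 and BIRC3 included: limma then called 1 member higher, with 1 lower at an unadjusted p under 0.05 and a median of log2 0.23. NFKBIE, an inhibitor of NF-kB, was at 1563, 1533 and 1369 with MI-1061 and at 818, 633 and 803 with MD-224 (0.503-fold, limma adjusted p = 5.32e-05). The signal adaptor TRAF1 was at 0.498-fold and BIRC3, a ubiquitin ligase that restrains cell death, at 0.395-fold. In a fit of the 2 compared groups alone 8 members were called lower. AP-1 and MAPK response genes were called lower in 8 of 21 cases, at a median of 0.663-fold, close to that of all genes. Scaling on the listed genes ended these 8 calls, FOSL1, DUSP5 and IER5 included: limma then called 1 member higher, with 2 lower at an unadjusted p under 0.05 and a median of log2 0.07. On the original scale 4 were called lower without NCS and MD-224 replicate 3 and 5 each without NCS and MD-224 replicate 2 or NCS and MI-1061 replicates 1 or 2. FOSL1, a subunit of AP-1, was at 19052, 19182 and 16173 against 10113, 6666 and 9230, or 0.472-fold, DUSP5, a phosphatase of ERK, at 0.404-fold, and IER5, an immediate early gene, at 0.574-fold.

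The series title also names the response to cytosolic DNA and RNA polymerase III. Of 13 listed interferon-stimulated genes and nucleic acid sensors 7 were called lower with MD-224 and 1 higher, with a median of 0.697-fold. That is 53.8% lower, close to the 54.7% of all genes. Under scaling on the listed genes it was 1 lower and 3 higher. NLRP1, an inflammasome sensor, was at 9923, 9037 and 8916 with MI-1061 and at 3454, 2585 and 2702 with MD-224, or 0.311-fold (log2 −1.68, SE 0.12, limma adjusted p = 5.94e-08). PML, the organizer of nuclear bodies, was at 0.581-fold, TRIM22, an antiviral ligase and p53 target, at 0.559-fold, and STAT2, a signal transducer of type I interferon, at 0.697-fold. STAT2 changed sign with scaling on the listed genes (log2 0.15). ISG15, a ubiquitin-like modifier and classic interferon target, was at 1763, 3552 and 2282 against 1552, 2016 and 2258, and the groups overlapped. Its difference of −0.34 was not called (95% interval −0.87 to 0.20, adjusted p = 0.27). With the replicate number as a block it was (adjusted p = 0.0291), and with scaling on the listed genes its sign changed (0.33).

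RSAD2, the antiviral protein viperin, was the member called higher and was named after its values were seen. It was at 48.8, 146 and 37.3 with MI-1061 and at 134, 189 and 660 with MD-224, and the groups overlapped. The call (log2 1.97, limma adjusted p = 0.0466) was lost without any 1 of NCS and MI-1061 replicates 1 and 3 and NCS and MD-224 replicates 2 and 3 (adjusted p = 0.0602 to 0.225). It was also lost with a pseudocount of 0.5 (0.0527) and with variance without a trend (0.0625).

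Of the RNA polymerase III machinery 4 of 37 genes on the list are in the table, and 3 were called lower, at a median of 0.667-fold. Of all genes tested 54.7% were called lower, at a median of 0.629-fold. After scaling on the listed genes the median was above 0 (log2 0.08) and limma called no member lower, with 1 lower at an unadjusted p under 0.05. SNAPC1, a subunit of the complex that starts small nuclear RNA genes, was at 2921, 3107 and 2959 with MI-1061 and at 1386, 1149 and 1431 with MD-224 (0.44-fold, limma adjusted p = 0.000126). GTF3C6, a subunit of TFIIIC, was at 0.626-fold. BRF2, an initiation factor of this polymerase, was at 0.712-fold (adjusted p = 0.0494), a call lost without NCS and MI-1061 replicates 1, 2 or 3 or NCS and MD-224 replicates 2 or 3 (adjusted p = 0.0631 to 0.2). SNAPC5, of the same complex as SNAPC1, was at 351, 485 and 426 against 274, 390 and 253 and was not called (adjusted p = 0.0559). With the replicate number as a block it was (0.0179). BRF2 and SNAPC5 changed sign with scaling on the listed genes (log2 0.18 and 0.19).

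**Figure D3:**
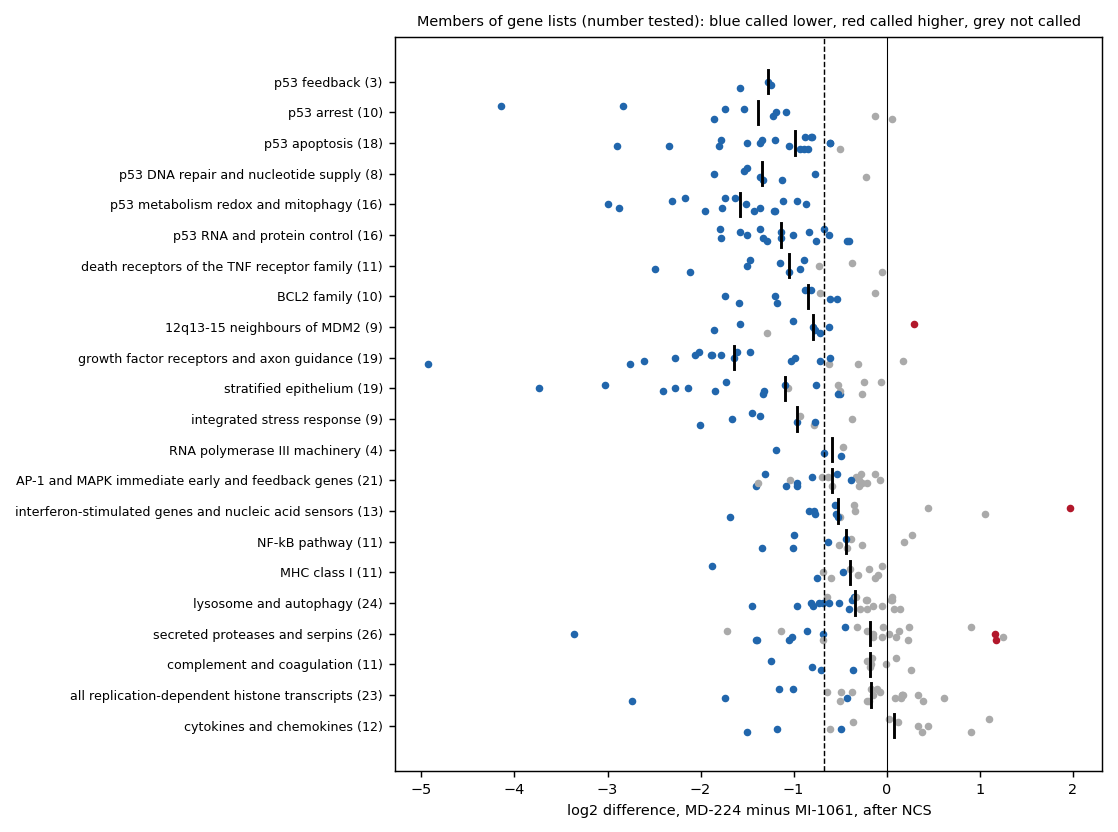
Members of 22 gene lists by their log2 difference after NCS (horizontal axis). Each point is 1 gene, blue if called lower with MD-224, red if called higher and grey if not called, and short black lines are list medians. The dashed line is the median of all genes tested, −0.67, and the lists run from medians below it at the top to 0.08 for cytokines and chemokines at the bottom.

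Genes of antigen presentation and complement were described next. Of 11 listed MHC class I genes 3 were called lower, at a median of 0.759-fold, and 4 had a 95% interval wholly within 1.5-fold. The 3 are 27.3%, below the 54.7% of all genes, and 8.49% of all genes lay within 1.5-fold. In the scaling on listed genes it was 1 lower and 2 higher, and with the replicate number as a block 5 lower. ULBP1, a stress ligand of natural killer cells, was at 1778, 1784 and 1746 with MI-1061 and at 649, 417 and 409 with MD-224 (0.272-fold, limma adjusted p = 5.56e-06). ERAP2, which trims peptides for presentation, was at 0.595-fold, and HLA-B at 0.721-fold, with a change of sign under scaling on the listed genes (log2 0.20). Of 11 complement and coagulation genes 4 were called lower, at a median of 0.885-fold. The 4 are 36.4%, again below the 54.7% of all genes. Scaling on the listed genes ended these 4 lower calls, CD55, C5AR1 and C1R included, and limma then called 4 members of the list higher, with 1 lower at an unadjusted p under 0.05. CD55, which shields cells from complement, was at 0.573-fold, C5AR1, the receptor of the fragment C5a, at 0.424-fold, and the protease gene C1R at 0.615-fold. The call on C1R was lost without NCS and MI-1061 replicate 2 (adjusted p = 0.0523) or NCS and MD-224 replicate 3 (0.0599).

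Secreted proteases and serpins were called lower in 8 and higher in 2 of 26 cases, with a median of 0.88-fold. The 8 are 30.8%, below the 54.7% of all genes, and 0.748% of all genes were called higher. By the listed-gene scaling it was 3 lower and 8 higher. SERPINB5, a serpin of epithelia, was at 227, 527 and 211 with MI-1061 and at 38, 45.2 and 12.2 with MD-224, or 0.0976-fold (limma adjusted p = 1.85e-05). TIMP3, an inhibitor of metalloproteases, was at 66219, 52703 and 53171 against 29997, 15234 and 22369, or 0.381-fold, and PLAT, a plasminogen activator, at 0.552-fold. The genes called higher were PAPPA and MMP10, a matrix protease named after its values were seen (47.6, 25.3 and 21.3 against 67.5, 38.6 and 119, adjusted p = 0.0384). The groups overlapped for MMP10, and in a fit of the 2 compared groups alone it was not called (0.0527). The call was also lost without NCS and MD-224 replicates 1 or 3 or NCS and MI-1061 replicates 2 or 3 (adjusted p = 0.0739 to 0.201).

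PAPPA (chromosome 9, 116153791 to 116402321), a protease that frees insulin-like growth factors, was among the largest rises with the degrader. It was at 2566, 1930 and 2399 with MI-1061 and at 5530, 4819 and 5015 with MD-224, or 2.24-fold higher (log2 1.16, SE 0.15, limma adjusted p = 6.5e-06). MD-224 also raised it over NCS alone, with a mean of 2942 (adjusted p = 0.0015). MYPN, a protein of muscle Z-discs, was at 339, 189 and 397 against 793, 670 and 1395, or 3.07-fold higher (adjusted p = 0.00168). Here MD-224 stood at the level of NCS alone, 788 ± 48.0 (SD, n = 3), and MI-1061 stood below it. HSD3B7, an enzyme of bile acid synthesis, was at 189, 198 and 196 against 407, 530 and 505, or 2.45-fold higher. SMCO3 was 2.31-fold higher, CARD6, a protein with a caspase recruitment domain, 1.73-fold, and ANGPTL4, a regulator of lipid uptake, 2.1-fold, though its call was lost without NCS and MD-224 replicate 3 (adjusted p = 0.082). In all 6 genes the 3 MD-224 libraries lay above the 3 MI-1061 libraries. The rule for naming the largest rises required this, so it adds no support.

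Some abundant genes did not differ by more than 1.5-fold. In 261 genes the whole 95% interval of the difference lay within 1.5-fold either way. FTH1, the heavy chain of ferritin, was at 159498, 148851 and 149374 with MI-1061 and at 159349, 146067 and 156267 with MD-224 (log2 0.01, interval −0.30 to 0.32). CTSB, a lysosomal protease, was at 154985, 146575 and 155402 against 152135, 138540 and 149453 (interval −0.29 to 0.18). SPARC, a matrix protein of bone, was at 134431, 125118 and 140509 against 141410, 122686 and 134916 (interval −0.34 to 0.33). PSAP, a precursor of lysosomal activator proteins (interval −0.56 to −0.01), and the autophagy receptor SQSTM1 (−0.39 to 0.09) were further cases. PSAP was called lower with the replicate number as a block (limma adjusted p = 0.00184). Read against the median listed gene, these genes were higher with MD-224, at log2 0.68 for FTH1, 0.61 for CTSB, 0.66 for SPARC, 0.38 for PSAP and 0.52 for SQSTM1.

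The lysosome and autophagy list mixed both patterns. Of 24 listed members 11 were called lower and 11 had an interval within 1.5-fold, with a median of 0.792-fold. Of all genes 54.7% were called lower and 8.49% lay within 1.5-fold. With scaling on the listed genes it was 2 lower and 12 higher. CTSD, a lysosomal protease, was at 127020, 124238 and 132620 with MI-1061 and at 91210, 72959 and 74977 with MD-224 (0.62-fold, limma adjusted p = 1.2e-05), and LAMP1, a membrane protein of lysosomes, was at 0.604-fold. Of 23 listed replication-dependent histone transcripts, most of which lack a poly(A) tail in growing cells, 5 were called lower, at a median of 0.892-fold. Under scaling on the listed genes it was 1 lower and 3 higher. HIST1H2BJ was at 3478, 3541 and 3251 against 682, 513 and 381, or 0.15-fold, and HIST1H2BG at 0.499-fold, while HIST1H4H was at 433, 378 and 477 against 411, 484 and 540 (log2 0.15, adjusted p = 0.537). Histone genes are near-identical copies, so reads may be split among them.

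The labelled cell type was set against its markers. Of 9 osteoblast and osteosarcoma markers SPP1 and COL1A2 are in the table, and their sum was 40586 to 50355.9 normalized counts with NCS and MI-1061 and 42591.9 to 55354.4 with NCS and MD-224. SPP1 (log2 −0.34, and 0.33 with scaling on the listed genes) and COL1A2 (0.07) were not called. Of 10 haematopoietic markers 4 are listed, LAPTM5, ITGAM, TREM1 and CD68, and their sum was 5236 to 5375 with MI-1061 and 3659 to 4875 with MD-224. LAPTM5 (0.32-fold) and ITGAM (0.328-fold) were called lower, TREM1 (log2 −0.55) and CD68 (0.14) were not called, and PTPRC, the defining marker, is not in the table. Of 5 endothelial markers VWF (log2 −1.17, called lower) and KDR (−0.62, not called) are listed, with a sum of 339 to 475 with MI-1061 and 216 to 231 with MD-224. Of 5 neuronal markers RBFOX3 is listed and was not called (log2 −1.26). The part of such markers in the results was not tested.

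The same pair of compounds was compared in cells without NCS, in other libraries than those above. Both contrasts come from 1 fit with a shared estimate of the spread, and from the same selected table. There limma called 1531 genes lower with MD-224, or 49.8%, and 381 higher, or 12.4%, with a median difference of −0.58. After scaling on the listed genes it was 943 and 847. Of the 1680 genes lower after NCS 954, or 56.8%, were also lower without it, which is 62.3% of the genes lower without NCS. A further 135 genes lower after NCS were higher without it. Across genes the differences with and without NCS had a Pearson correlation of 0.369 and a Spearman correlation of 0.357, as a description, since genes are not independent. MDM2 without NCS had a mean of 1572230 with MI-1061 and of 407832 with MD-224, a log2 difference of −1.93 (limma adjusted p = 7.9e-08).

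The difference between the 2 compound contrasts was tested as an interaction, as the contrast after NCS minus that without. Limma called 435 genes with a positive value, or 14.2%, and 761 with a negative one, or 24.8%. For MDM2 it was not called (0.36, adjusted p = 0.24). For CDKN1A it was 0.75 (adjusted p = 0.012), so the gap between the compounds was smaller after NCS. For PPM1D it was 0.87 (adjusted p = 0.0068). TP53I3 (−1.97), PANK1 (−1.47), CES2 (−1.29) and PLXNB3 (−2.09) had gaps that were wider after NCS.

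PLXNB3 without NCS had means of 855 with MI-1061 and 1058 with MD-224, a difference that was not called (log2 0.31, limma adjusted p = 0.095). After NCS the fall was to 0.291-fold, and the interaction had an adjusted p of 5.9e-06. NLRP1 behaved likewise, with 1537 ± 37.9 (SD, n = 3) and 1440 ± 76.3 without NCS, an interaction of −1.59 and an adjusted p of 5.9e-06. IL1A (−2.0) and DSP (−1.95) also had a negative interaction. DSP was called higher with MD-224 without NCS (log2 0.62, adjusted p = 0.019).

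**Figure D4:**
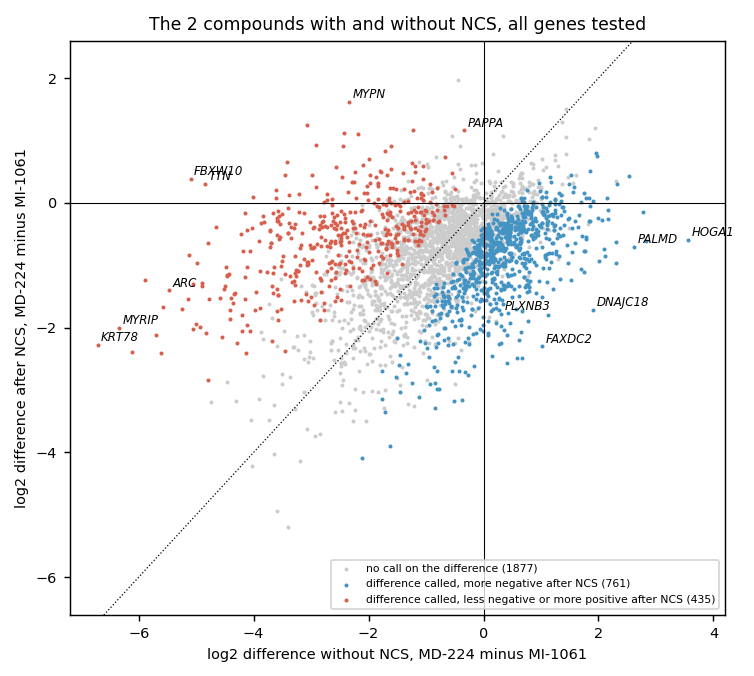
Difference between MD-224 and MI-1061 without NCS (horizontal axis, log2) and after NCS (vertical axis, log2) for all 3073 genes tested. Blue and red mark the 761 and 435 genes whose interaction was called, and the dotted line is equality. Points to the left and above the line, such as KRT78, TTN and FBXW10, had a larger gap without NCS.

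The largest negative interactions were those of HOGA1, DNAJC18, QPRT, PALMD and FAXDC2. DNAJC18, a membrane cochaperone, was at 3221, 5585 and 3440 with NCS and MI-1061 and at 1155, 1368 and 1111 with NCS and MD-224. Without NCS it was at 356, 365 and 426 with MI-1061 and at 1464, 1284 and 1552 with MD-224. The order of the compounds turned round, from log2 1.90 without NCS to −1.71 after it (interaction −3.62, limma adjusted p = 1.5e-07). HOGA1, a mitochondrial aldolase, had an interaction of −4.15 and was not called after NCS (log2 −0.59, adjusted p = 0.362). PALMD was higher with MD-224 without NCS (log2 2.62) and lower after NCS (−0.71, adjusted p = 0.0439).

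The largest positive interactions were those of FBXW10, TTN, LINC00452, KRT78 and MYRIP, which were lower with MD-224 without NCS by log2 −5.10, −4.85, −5.88, −6.72 and −6.34. TTN, the giant spring protein of the muscle sarcomere, was at 574, 1011 and 1104 with MI-1061 alone and at 47, 23.2 and 22 with MD-224 alone. After NCS it was at 151, 91.7 and 163 against 150, 129 and 221, where the groups overlapped (interaction 5.16, limma adjusted p = 5.4e-06). KRT78 had means of 4847 and 42.2 without NCS and of 738 and 156 after it (interaction 4.44, adjusted p = 3.1e-05). FBXW10, a substrate receptor of ubiquitin ligases, was at 682, 428 and 716 against 22.9, 18 and 10.5 without NCS. After NCS it was at 7.14, 23.7 and 8 against 11.6, 14.1 and 20.2, and the groups overlapped.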

How the data were processed

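Poly(A) RNA of SJSA-1 cells was measured in 18 libraries, 3 per group. The authors deposited normalized counts (unit: signal). The submitters' processing notes list GRCh38, featureCounts 1.6.3, DESeq2 2.11.40.6 and HISAT2 2.0.5.2, giving no roles. Of the listed names 2795 are RefSeq symbols and 203 synonyms.

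Values were tested as log2(value + 1) in limma 3.58.1 (R 4.3.3, trended variance, all 18 libraries in 1 fit), keeping genes that reached 10 in 3 or more libraries, with Benjamini-Hochberg adjustment over 3073 genes, two-sided. TMM and the count test used edgeR 4.0.16. EdgeR and DESeq2 1.42.0 were run without NCS alone, on recovered reads (100% of values whole, tolerance 0.01). They were not run after NCS. The fit was tested on simulated data. Figures used matplotlib 3.10.9.

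Members and gene lists were chosen with earlier results of these data known. Some genes stand on more than 1 list. Named genes were the 12 largest rises and falls, 5 per direction for the interaction, up to 6 members per list by p, the 6 most abundant genes within 1.5-fold, and MDM2, CDKN1A and ISG15. The 12 largest rises and falls were taken among genes called, with a mean of at least 50 and no overlap of the 2 groups. Genes with a printed match in their promoter were added. The values of 1 listed gene are not reported here. Like-numbered libraries deviated together (r = 0.309, 0.428 and 0.198 after NCS, and 0.405, 0.434 and 0.102 without). The numbers were therefore taken to pair them. The main fit left this pairing out, and only the fits with the replicate number as a block used it.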

Additional observations from a re-analysis of the deposited data

Results flagged for a closer look

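For the genes below, the gap between MD-224 and MI-1061 differed between cells with and without NCS, by limma's test of the difference itself with Benjamini-Hochberg adjustment over all genes tested. Values are log2 differences after NCS minus those without, so a negative value means that MD-224 stood lower relative to MI-1061 after NCS.

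Among the p53 targets named in this report the value was positive for PPM1D (0.87), CDKN1A (0.75), DDB2 (0.56), AEN (0.65) and PLK2 (0.87), and negative for TP53I3 (−1.97), PERP (−0.70), PANK1 (−1.47), CES2 (−1.29), RPS27L (−0.38), DCP1B (−0.77), TRIM32 (−0.67), PLXNB3 (−2.09) and CASP1 (−1.80). Over the whole lists, positive calls were 1 of 3 feedback, 2 of 10 arrest, 2 of 18 apoptosis and 1 of 8 repair genes. Negative calls were 4 of 18 apoptosis, 6 of 16 metabolism and 9 of 16 RNA and protein control genes. Of all genes tested 14.2% were called positive and 24.8% negative.

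Among the other genes named here, those with a value beyond 3 either way were positive for TNFRSF10A (3.59), ARC (4.08), KRT4 (3.2), KRT78 (4.44), MYPN (3.96), FBXW10 (5.48), TTN (5.16), LINC00452 (4.65) and MYRIP (4.34), and negative for HOGA1 (−4.15), DNAJC18 (−3.62), QPRT (−3.45), PALMD (−3.33) and FAXDC2 (−3.31).

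Other genes named in the report had positive values in the case of TSPAN31 (1.22), IL6 (2.51), SNAPC1 (0.84), PAPPA (1.5), FOSL1 (1.31), AKR1B10 (1.41), HIST1H4H (1.25), CTSB (0.46), SQSTM1 (1.02), EPHB3 (0.96), FGFR2 (1.16), LAPTM5 (1.31), ITGAM (2.74) and MMP10 (2.39), and negative values in the case of NUPR1 (−1.33), IL1A (−2.0), NLRP1 (−1.59), STAT2 (−0.77), PML (−0.60), ERAP2 (−0.63), GTF3C6 (−0.76), C1R (−1.04), TIMP3 (−1.34), PLAT (−0.82), DSP (−1.95), COL1A2 (−1.75) and CARD6 (−1.16).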

How the results depend on the processing

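Scaling on the listed genes (TMM) had the widest effect. It called 357 genes higher and 552 lower in MD-224 against MI-1061 after NCS, 847 and 943 without NCS, 116 and 6 in MD-224 against DMSO after NCS, and 733 and 592 in MI-1061 against DMSO after NCS. The table lists only genes that rose with NCS and MI-1061, so this scaling sets the middle of a selected set to 0. Under it the sign turned for RPS27L (0.24), DCP1B (0.26), BAX (0.058), CSF1 (0.18), ISG15 (0.33), STAT2 (0.15), HLA-B (0.20), BRF2 (0.18), SNAPC5 (0.19), SPP1 (0.33), CTSB (0.61), PSAP (0.38), SQSTM1 (0.52), SPARC (0.66), PLK2 (0.54), CASP1 (0.16) and ERCC5 (0.44). With the sign kept, calls were lost for BBC3, PERP, PHLDA3, AEN, GPX1, PMAIP1, TRIM32, TNFRSF10B, TNFRSF10A, GDF15, ATF3, IL1B, PML, TRIM22, ERAP2, SNAPC1 and GTF3C6. The same held for CTSD, PLAT, LAMP1, HIST1H2BG, ITGAM, NFKBIE, TRAF1, BIRC3, CD55, C5AR1, C1R, FOSL1, DUSP5, ARC, IER5, AKR1B10 and BMP2.

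Without 1 library at a time, 10 to 20 genes were higher and 1448 to 1610 lower in MD-224 against MI-1061 after NCS, with 10 higher without NCS and MD-224 replicate 3 and 15 without NCS and MI-1061 replicate 1. Without NCS it was 305 to 385 and 1379 to 1502, and for the interaction 363 to 458 and 647 to 781. MD-224 against NCS alone gave 186 to 463 higher (186 without NCS and MD-224 replicate 1, and 298, 287 and 283 without the NCS and DMSO replicates), and MI-1061 against NCS alone 1996 to 2033 higher and 14 to 21 lower. COL1A2 (−0.054 to 0.16), FTH1 (−0.0135 to 0.049), SPARC (−0.050 to 0.052) and KLF4 (−0.11 to 0.18) turned sign around 0.

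With the replicate number as a replicate block, MD-224 against DMSO after NCS had 755 genes higher, and MD-224 against MI-1061 after NCS had 34 higher and 1883 lower. In a fit of the compared groups alone, MI-1061 against DMSO after NCS had 36 lower. With variance without a trend 1 gene was lower in MD-224 against DMSO after NCS. The causes were not tested. In that comparison limma called no gene lower, and 3 were lower at an unadjusted p under 0.05. EdgeR called 280 higher and 1341 lower and DESeq2 318 higher and 1396 lower in MD-224 against MI-1061 without NCS. The 3 libraries a group limit what can be called, and depths of the whole libraries are not known from listed genes alone.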

Other observations

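Some other gene groups were described in the same comparison after NCS, where limma called 54.7% of all genes lower with MD-224. Of 71 listed solute carrier genes, which move nutrients and ions across membranes, 34 were called lower and 2 higher, with a median of 0.631-fold, close to 0.629-fold for all genes. With scaling on the listed genes it was 16 lower and 16 higher. Of 60 listed ZNF zinc finger genes 35 were called lower, at a median of 0.555-fold, and with scaling on the listed genes 10 were lower and 2 higher. Of 45 listed long intergenic noncoding RNAs 19 were called lower, at 0.615-fold, and 3 lower and 3 higher with that scaling. Of 9 listed NRF2 redox genes 2 were called lower, among them AKR1B10, an aldo-keto reductase (0.373-fold), and of 7 bone lineage genes 3, among them BMP2, a bone growth factor (0.415-fold). Scaling on the listed genes ended all of these lower calls, AKR1B10 and BMP2 included. Limma then called 3 NRF2 genes and 1 bone gene higher, and 1 of each list was lower at an unadjusted p under 0.05.

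The GC box GGGCGG, searched on both strands in the 250 bases before the start, stood in 75.1% of genes called lower, 61.7% of listed genes not called and 46.2% of all genes with a window. The AP-1 motif TGANTCA stood in 9.37%, 9.44% and 8.06%, and the E-box CACGTG in 10.5%, 11.7% and 7.73%. These shares are a description of letters in this window.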
